A study of Mus musculus with 6 samples.

Results

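The Tas2r genes encode the bitter taste receptors. All genes whose symbol starts with Tas2r were taken from the expression table of sorted mouse thymic tuft cells, which gave 40 of its 55471 genes. Of these, 35 carry ordinary gene symbols and 5 are named as pseudogenes (Tas2r111-ps2, Tas2r141-ps4, Tas2r142-ps5, Tas2r145-ps3 and Tas2r146-ps1). All 40 are annotated with 1 exon and 1 transcript of 882 to 1158 bases, and 0 overlap another annotated gene.

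Each Tas2r protein is a G protein-coupled receptor with its own range of bitter ligands. In taste buds and in tuft cells of mucosal surfaces, bitter receptors signal through gustducin and its partner subunits (Gnat3, Gnb3, Gng13), the phospholipase Plcb2, the calcium release channel Itpr3 and the cation channel Trpm5. Tuft cells are rare chemosensory epithelial cells that depend on the transcription factor Pou2f3, and thymic tuft cells are epithelial cells of the medulla that take on this program. Ikzf1 encodes Ikaros, a zinc finger transcription factor best known from lymphocytes.

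The cells were sorted from mouse thymus on L1CAM, a surface protein of tuft cells. Both groups carried the loxP-flanked Ikzf1fl/fl alleles. The group labelled WT was Foxn1-Cre(-), so it had the floxed alleles and no Cre. The group labelled KO was Foxn1-Cre(+), and the Foxn1 promoter drives Cre in thymic epithelial cells. There were 3 libraries per group. In the expression table the libraries appear as Het1, Het2 and Het3 and as Ko1, Ko2 and Ko3. The Ko columns were taken for the KO label by name, the Het columns for the WT label because no other group was left, and none could be tied to a single sample. Age is not given in the sources used here, and nothing states that replicates came from separate animals, so the p-values measure only the spread between these libraries.

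Values are normalized read counts (reads per gene over a size factor that is constant within a library), and each library held 12238428 to 31435787 reads. Ikzf1 (ENSMUSG00000018654) stood at 301, 187 and 273 in the libraries labelled WT and at 1572, 1463 and 1717 in those labelled KO. Its transcript count was thus higher under the KO label (log2 difference 2.66 ± 0.30 (SE), limma adjusted p = 0.0105, and 0.0621 without Het3), which goes against that label. The table gives a value per gene and none per exon, so deletion was not tested, and every direction below is between libraries as labelled. The 14 tuft cell markers summed to 123088 to 174283 under the WT label and to 209496 to 250600.0 under the KO label, with 0 of the markers at 0 in every library and 13 of them at a higher mean under the KO label. The separation of these sums rested on Rgs13: without it they were 139712, 118604 and 90931 in Het1 to Het3 and 141584, 130931 and 152539 in Ko1 to Ko3, and overlapped.

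1 WT-labelled library stood apart from the others of its group in the Tas2r genes. The mean log2 value over the 36 Tas2r genes with a mean of at least 10 was 5.50 in Het1, 8.49 in Het2 and 7.67 in Het3. It was 6.48, 6.09 and 5.62 in Ko1, Ko2 and Ko3, so Het1 lay below all 3 KO-labelled libraries. The same library was the low one of its group for the sum of the 10 markers of Aire-stage medullary epithelium. That sum was 30534 in Het1, 91781 in Het2 and 85165 in Het3, against 24571, 31556 and 20749.8 in Ko1 to Ko3. H2-Aa (19647, 45617 and 44173 in Het1 to Het3) and Ubd (8249, 40719 and 35545) made up most of it in every library. Prdm1 went the other way within the group (392, 131 and 41.8), and Ccl22 was slightly higher in Het1 than in Het2. Of these markers 2 had a higher mean under the KO label and 0 were at 0 in every library. By this sum Het1 lay above Ko1 and Ko3. A sum of counts and the mean log2 value of the Tas2r genes are unlike measures, so their library orders are not compared. Het1 was lowest of all 6 libraries, and Het2 highest, for the sum of the 5 ciliated cell markers. It was 1648, 5012 and 3453 in Het1 to Het3 and 2263 to 2699 under the KO label. Dnah5 (2248, 2008 and 2656 in Ko1 to Ko3) made up most of each KO-labelled sum. For Foxj1, Dnah9 and Sntn, Het1 lay above every KO-labelled library, and for Ccdc39 it lay below Ko2 only. Het1 was also lowest and Het2 highest for the 5 cortical epithelium markers, at 1934, 14949 and 4259 against 2679 to 5002. Ccl25 made up most of each of these sums, and Psmb11 and Dll4 were higher in Het1 than in Het2 and Het3. In each of these lists 1 marker had a higher mean under the KO label and 0 were at 0 in every library. The 6 secretory cell markers summed to 120817 to 182150.0 under the WT label and to 3648 to 29009.6 under the KO label, and 0 of them had a higher mean there. Reg3g (113982, 115754 and 156514 in Het1 to Het3) made up most of the WT-labelled sums. Agr2 and Spdef overlapped between the groups (Spdef 496, 152 and 315 against 102, 329 and 292). The 6 B cell markers summed to 2338 to 3503 under the WT label and 5122 to 5826 under the KO label, but only 2 had a higher mean there, and Cd79b (mean 2463 and 5279) made up most of the sum. Without Cd79b the sums were 355, 461 and 1030.2 in Het1 to Het3 and 457, 231 and 160.4 in Ko1 to Ko3, and overlapped. The 10 thymocyte markers summed to 104 to 407 and 523 to 1183, and 7 had a higher mean under the KO label. Themis (mean 48.9 and 574) carried that difference, and without it the sums were 327, 44.7 and 328 and 88.5, 215 and 275, which overlapped. In both lists 0 markers were at 0 in every library. In the remaining lists Het1 was not the lowest of its group. Microfold markers summed to 34994, 27302 and 39529 in Het1 to Het3 (KO label 19521 to 23208), with Gp2 at 18627, 5519 and 16339. Neuroendocrine markers summed to 930, 1323 and 708 (38.7 to 460). Keratinocyte-like markers summed to 3092, 3985 and 2363 (1931 to 3197) and ionocyte markers to 488, 330 and 570 (198 to 518). Of these lists' markers, 3, 0, 1 and 1 had a higher mean under the KO label. The part of these cell types in the Tas2r values was not tested. In these bulk samples, a lower number of cells of a type and a lower RNA content per cell cannot be told apart.

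Promoter windows of 6 Tas2r genes are shown. Tas2r137, Tas2r108 and Tas2r138 are neighbours whose summed count stood higher under the KO label, a sum made up mostly of Tas2r108. Tas2r105, Tas2r107 and Tas2r109 had lower values there without overlap, and lie in the larger arrays of chromosome 6. Each window runs 5′ to 3′ on the gene's strand from 250 bases before to 50 bases after the annotated start, from RefSeq on GRCm38.p6. Capitals mark an octamer (ATTTGCAT, or ATGCAAAT on the other strand), the sequence class bound by POU factors such as Pou2f3, or an Ikaros core (TGGGAA, or TTCCCA on the other strand). The windows are chr6:40490988-40491287 (plus strand) for Tas2r137, chr6:40493342-40493641 (plus strand) for Tas2r108, chr6:40613261-40613560 (minus strand) for Tas2r138, chr6:131687414-131687713 (minus strand) for Tas2r105, chr6:131660100-131660399 (minus strand) for Tas2r107 and chr6:132980916-132981215 (minus strand) for Tas2r109.
Tas2r137 promoter: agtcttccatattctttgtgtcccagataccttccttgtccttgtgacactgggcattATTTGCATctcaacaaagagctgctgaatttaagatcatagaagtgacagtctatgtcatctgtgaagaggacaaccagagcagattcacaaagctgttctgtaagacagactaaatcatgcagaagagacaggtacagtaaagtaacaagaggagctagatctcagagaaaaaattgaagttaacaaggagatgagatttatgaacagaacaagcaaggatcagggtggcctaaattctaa
Tas2r108 promoter: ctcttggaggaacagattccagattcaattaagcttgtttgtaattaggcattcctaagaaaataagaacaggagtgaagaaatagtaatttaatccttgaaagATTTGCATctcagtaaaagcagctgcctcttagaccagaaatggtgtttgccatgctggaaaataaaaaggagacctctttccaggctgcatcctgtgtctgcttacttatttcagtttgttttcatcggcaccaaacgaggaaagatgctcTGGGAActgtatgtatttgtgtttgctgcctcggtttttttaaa
Tas2r138 promoter: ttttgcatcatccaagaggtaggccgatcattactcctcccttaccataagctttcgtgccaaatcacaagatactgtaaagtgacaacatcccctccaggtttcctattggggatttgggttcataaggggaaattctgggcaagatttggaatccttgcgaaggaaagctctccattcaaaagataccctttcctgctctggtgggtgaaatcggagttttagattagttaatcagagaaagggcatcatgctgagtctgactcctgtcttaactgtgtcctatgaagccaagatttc
Tas2r105 promoter: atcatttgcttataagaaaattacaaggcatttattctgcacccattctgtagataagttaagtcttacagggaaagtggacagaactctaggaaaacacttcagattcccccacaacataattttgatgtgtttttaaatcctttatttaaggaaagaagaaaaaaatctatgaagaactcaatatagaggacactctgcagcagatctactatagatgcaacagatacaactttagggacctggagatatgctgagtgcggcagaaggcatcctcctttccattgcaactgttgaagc
Tas2r107 promoter: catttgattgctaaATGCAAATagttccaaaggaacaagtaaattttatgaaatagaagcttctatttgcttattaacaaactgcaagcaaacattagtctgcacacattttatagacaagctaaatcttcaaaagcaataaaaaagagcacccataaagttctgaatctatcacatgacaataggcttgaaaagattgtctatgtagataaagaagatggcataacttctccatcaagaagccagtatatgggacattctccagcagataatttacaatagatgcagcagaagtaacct
Tas2r109 promoter: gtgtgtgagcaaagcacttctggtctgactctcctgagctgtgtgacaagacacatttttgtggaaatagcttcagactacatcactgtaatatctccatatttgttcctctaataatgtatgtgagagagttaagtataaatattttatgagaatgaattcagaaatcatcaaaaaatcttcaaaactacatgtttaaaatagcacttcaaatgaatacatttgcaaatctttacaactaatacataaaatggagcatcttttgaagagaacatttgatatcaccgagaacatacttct

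Tas2r137 and Tas2r108 hold the octamer on the gene's own strand, 192 and 146 bases before the annotated start, and Tas2r107 holds it on the opposite strand, 236 bases before. The Tas2r138, Tas2r105 and Tas2r109 windows hold neither motif in these letters. In 29 of the 31 Tas2r windows the annotated start is followed directly by ATG, so most windows are set by the start codon and the true transcription start may lie elsewhere. The octamer was in 7 of the 31 Tas2r windows (22.6%) and in 570 of all 32851 windows of the same length (1.74%). The others with it were Tas2r118, Tas2r126, Tas2r135 and Tas2r144. The Ikaros core was in 5 Tas2r windows (16.1%), among them Tas2r108, where it lies after the start, and in 25.6% of all windows. The 2 motifs did not overlap in any Tas2r window. A match is a stretch of letters and not a bound site.

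Bitter receptor transcripts were present in all 6 libraries, and the family was dominated by a few genes. The sum over the 40 genes was 11929 normalized counts in Het1, 27033 in Het2 and 17496 in Het3. Ko1, Ko2 and Ko3 summed to 16365, 10755 and 10998. The mean was 18819.5 ± 7638 (SD, n = 3) under the WT label and 12706 ± 3171 (SD, n = 3) under the KO label, a KO to WT ratio of 0.675. The groups overlapped, since Het1 lay below Ko1. Per 1000000 reads of the library, the family had 679, 1510.3 and 976 reads in Het1 to Het3 and 948, 606 and 627 in Ko1 to Ko3. Het2 held the highest family total on either scale.

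**Figure D1:**
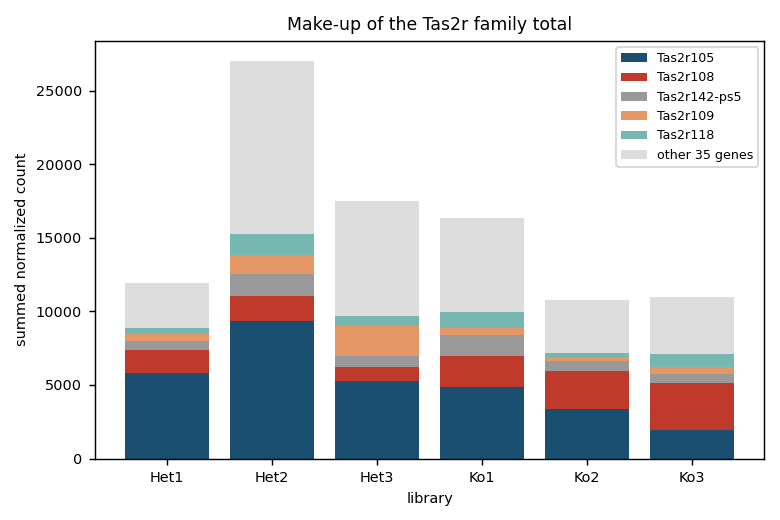
Stacked bars of the summed normalized count of the 40 Tas2r genes in each library, split into the 5 genes with the highest mean and the other 35. Het2 reached 27033 and Het1 11929, so the WT-labelled libraries spread wider than the KO-labelled ones, which lay between 10755 and 16365.

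Many receptors were detected together in each library. At a normalized value of 5 or more, 27, 36 and 35 of the 40 genes were detected in Het1, Het2 and Het3. The counts were 30, 30 and 26 in Ko1, Ko2 and Ko3. A value of 5 exceeds that of 3 reads in every library, since 3 reads were worth 1.68 to 4.33. At 100 or more the counts were 14, 32 and 28 against 23, 17 and 16, with Het1 lowest of all 6. Tas2r143 and Tas2r122 were near silent throughout, with 2 and 1 reads over the WT-labelled libraries and the same numbers over the KO-labelled ones.

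Tas2r105, the mouse cycloheximide receptor, was the most abundant member per kb of transcript. Its level was 7068 ± 2269.9 per kb (SD, n = 3) under the WT label and 3524 ± 1495 under the KO label. Tas2r108, a mouse receptor for denatonium, came next in the order over all 6 libraries, at 1360.3 ± 409.6 and 2597 ± 518 per kb. After these came Tas2r142-ps5 (1002 per kb over the 6 libraries), Tas2r109 (887), Tas2r118 (872), Tas2r115 (674), Tas2r102 (497) and Tas2r138 (492). From Tas2r142-ps5 on, neighbours in this order differed by less than their spread between libraries, and under the KO label Tas2r105 and Tas2r108 overlapped too. Tas2r105 alone supplied 49.0%, 34.5% and 30.2% of the family's normalized counts in Het1 to Het3 and 29.7%, 31.3% and 17.9% in Ko1 to Ko3.

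**Figure D2:**
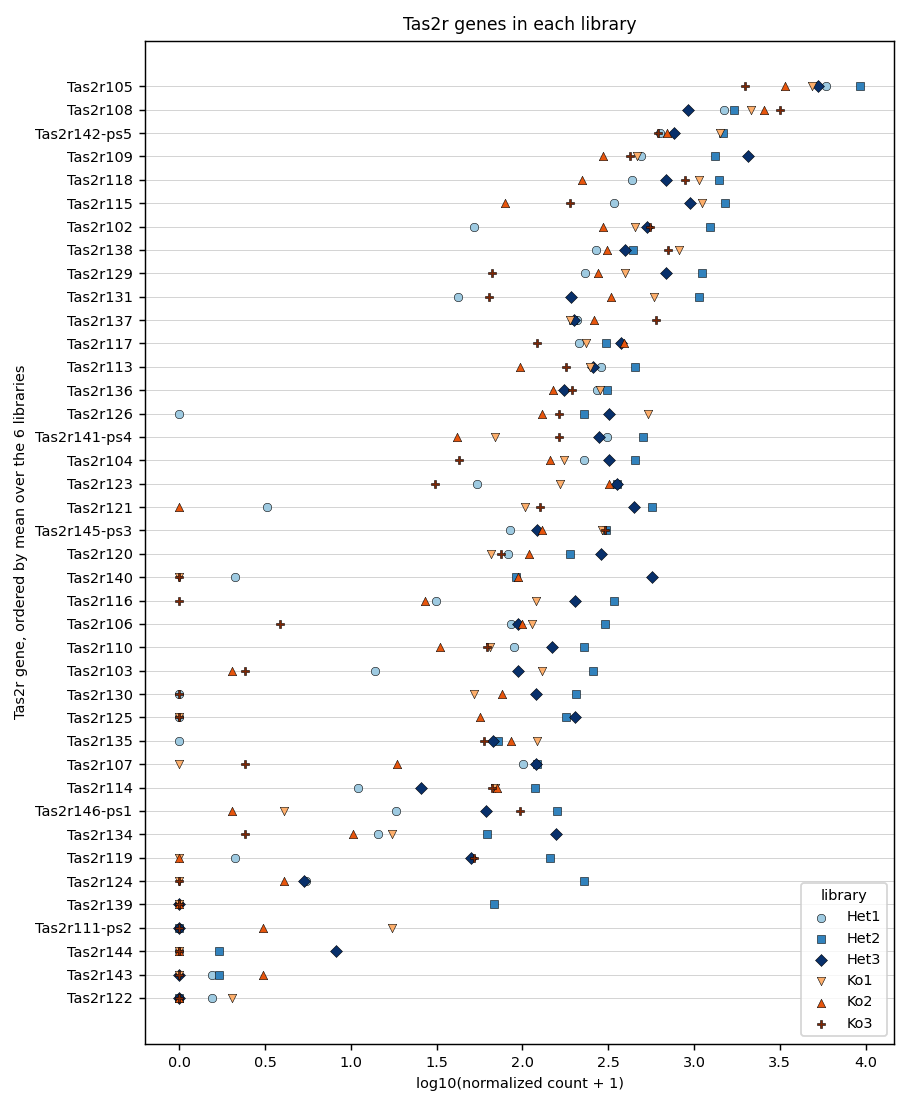
Each Tas2r gene's normalized count in the 6 libraries, as log10(normalized count + 1), with genes ordered by their mean. Blue symbols are WT-labelled and orange symbols KO-labelled libraries; Tas2r105 and Tas2r108 lead, and low genes such as Tas2r125 spread from 0 to 201 within a group.

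No Tas2r gene passed the test between the groups. With limma on log2(normalized count + 1) and Benjamini-Hochberg adjustment over 19416 genes, 0 of the 36 tested Tas2r genes had an adjusted p under 0.05, where 0.814% of all tested genes did (0.525% lower and 0.288% higher under the KO label). The lowest adjusted p among them was 0.132. At an unadjusted p under 0.05 there were 6 of 36 (16.7%), against 13.6% of all tested genes, so the share was near the background. edgeR's quasi-likelihood test and voom on the recovered reads also called 0 of 36, with backgrounds of 0.386% and 0.206%. DESeq2 called 5 (background 6.34%), of which 4 were lower under the KO label (background 4.24%) and 1 was higher (background 2.1%). The authors' deposited table holds an adjusted p for 34 Tas2r genes, and 3 of them are under 0.05, all lower under the KO label (background 5.16%, and 8.19% in either direction).

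The fitted differences leaned to lower values under the KO label without a call. The log2 difference (KO minus WT) was negative for 27 of the 36 tested genes (75.0%) and for 52.8% of all tested genes. Its median was -1.27 over the family and -0.05 over all tested genes, and it was also -1.27 with the gene at 0 reads under the KO label set to its bound. By the mean normalized count, 29 of 36 were higher under the WT label, against 52.5% of all tested genes. The filter of a mean of at least 10 over all libraries bears on these counts. Tas2r107, Tas2r124, Tas2r134 and Tas2r139 passed it with a KO-labelled mean under 10, and no tested member had a WT-labelled mean under 10. Without the filter 28 of 40 were negative, with a median of -1.04 over the family and -0.05 over all genes. The median was -1.87 without Het1 and -0.77 without Het2, and -1.65 without Ko1 and -0.87 without Ko3, so its size rested on single libraries under both labels. The residual SD of the Tas2r genes had a median of 1.56 on the log2 scale, against 0.77 over all tested genes, and was above 1 in 22 of 36.

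**Figure D3:**
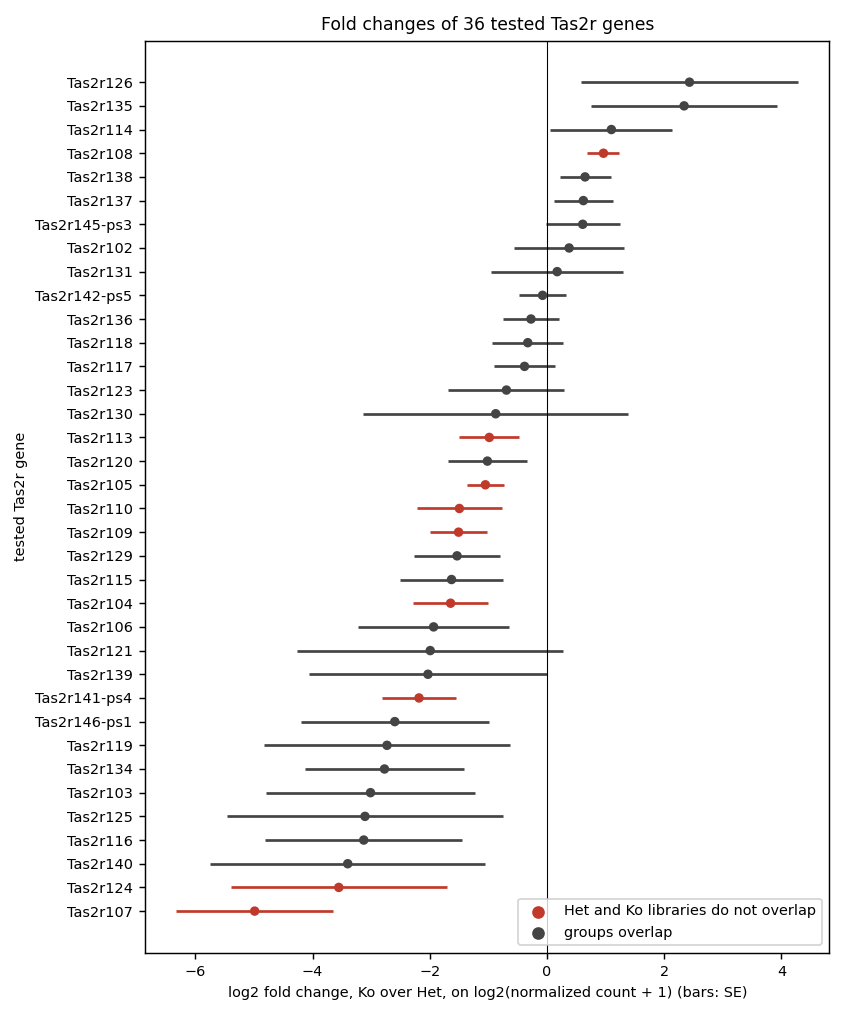
Log2 difference (Ko over Het, on log2(normalized count + 1)) of each tested Tas2r gene, with bars for its standard error. Of the 36 genes 27 lie below 0, and the 9 in red have groups that do not overlap.

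In 9 of the 36 tested genes the 3 WT-labelled and 3 KO-labelled values did not overlap, against 18.4% of all tested genes. For 8 of them the WT-labelled values were the higher ones, which is 8 of 36 where 9.86% of all tested genes do so. For 1, Tas2r108, the KO-labelled values were higher, which 8.57% of all tested genes do. The other 27 overlapped. The 8 genes were Tas2r105, Tas2r104, Tas2r107, Tas2r109, Tas2r110, Tas2r113, Tas2r124 and Tas2r141-ps4. Tas2r107 and Tas2r124 passed the filter on mean count only through the WT-labelled libraries. Leaving out Het1 raised the count of 8 to 16, against 17% of all tested genes, and leaving out Het2 left it at 8, against 14.6%. These alternatives were chosen after the values were seen, and Het1 was left out because it was low in these same genes. Leaving out a WT-labelled library can only keep or raise such a count, so the rise is a description only. For this count no other library was left out.

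Tas2r105 (ENSMUSG00000051153) stood at 5844, 9319 and 5278 normalized counts in Het1 to Het3 and at 4853, 3368 and 1971 in Ko1 to Ko3. Every WT-labelled library was above every KO-labelled one, with the gap narrowest between Het3 and Ko1. The means were 6814 ± 2188 (SD, n = 3) and 3397 ± 1441, and the log2 difference was -1.05 ± 0.32 (SE), with a limma adjusted p of 0.177. The edgeR adjusted p was 0.273, and that of DESeq2 0.0233. In the authors' deposited table the log2 fold change is -1.0 with an adjusted p of 0.119.

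Tas2r108 (ENSMUSG00000037140) stood the other way. It stood at 1498, 1719.6 and 916 in Het1 to Het3 and at 2144, 2562 and 3187 in Ko1 to Ko3, with no overlap. Means were 1378 ± 415 (SD, n = 3) and 2631 ± 525, a ratio of 1.91. The log2 difference was 0.96 ± 0.27 (SE), with a limma adjusted p of 0.151, an edgeR adjusted p of 0.206 and a DESeq2 adjusted p of 0.0239. The authors' deposited table gives 0.93 and 0.0528. It was thus called by 1 of the tools run and by neither the main test nor that table.

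The balance between these leading receptors is given as a description. The per-kb ratio of Tas2r105 to Tas2r108 was 4.10 in Het1, 5.69 in Het2 and 6.05 in Het3, whereas the KO-labelled libraries Ko1 to Ko3 had 2.38, 1.38 and 0.650. In Ko3, Tas2r108 was the more abundant of the pair. The mean log2 ratio was 2.38 ± 0.30 (SD, n = 3) under the WT label and 0.36 ± 0.94 under the KO label, a difference of -2.02. The ratio was chosen after the values were seen, and its separation follows from that of the 2 genes in opposite directions, so it was not tested. Tas2r108 made up 12.6%, 6.36% and 5.24% of the family in Het1 to Het3 and 13.1%, 23.8% and 29.0% in Ko1 to Ko3.

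Tas2r107 (ENSMUSG00000053389) showed the lowest limma p of the family. It stood at 99.5, 120.0 and 118 in Het1 to Het3 and at 0, 17.6 and 1.43 in Ko1 to Ko3. These values rest on 429 reads over the WT-labelled libraries and 18 over the KO-labelled ones. The 3 WT-labelled libraries were close together here, Het1 included. Means were 113 ± 11.3 (SD, n = 3) and 6.35 ± 9.78, the log2 difference was -4.99 ± 1.34 (SE), and the adjusted p was 0.132 with limma, 0.304 with edgeR and 0.0382 with DESeq2. The authors' deposited table gives -4.13 with 0.0182.

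Tas2r109 (ENSMUSG00000062528) stood at 487, 1328 and 2068 in Het1 to Het3 and at 462, 295 and 423 in Ko1 to Ko3. The groups did not overlap, but Het1 and Ko1 were nearly level. Means were 1294 ± 791 (SD, n = 3) and 393 ± 87.1, and the log2 difference was -1.51 ± 0.49 (SE), with an adjusted p of 0.205 by limma, 0.204 by edgeR and 0.00756 by DESeq2. The authors' deposited table gives -1.72 with 0.0242. Tas2r141-ps4, named as a pseudogene, stood at 310.4, 503 and 279.9 against 67.9, 40.4 and 163, also with no overlap. Its means were 364 ± 121 (SD, n = 3) and 90.5 ± 64.5, and its adjusted p was 0.156 by limma, 0.251 by edgeR and 0.0381 by DESeq2. In the authors' deposited table it is at -2.02 with 0.0174.

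The other non-overlapping genes were lower in abundance. Tas2r104 stood at 227, 454 and 317 in Het1 to Het3 and 174, 144 and 41.5 in Ko1 to Ko3 (limma adjusted p = 0.300). Tas2r113 stood at 286, 453 and 255 against 247, 95.3 and 179 (limma adjusted p = 0.445), so the gap between Het3 and Ko1 was small beside the spread within each group. Tas2r110 stood at 87.8, 228 and 147 against 63.8, 32.1 and 61.6 (limma adjusted p = 0.407). For Tas2r124 the separation was carried by 1 library, since it stood at 4.47, 227 and 4.33 in Het1 to Het3 and at 0, 3.11 and 0 in Ko1 to Ko3. It had 331 reads over the WT-labelled libraries and 3 over the KO-labelled ones, a size-scaled ratio of 74.8 with an exact 95% interval of 25.4 to 364 that covers counting error only.

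The remaining abundant receptors overlapped between the groups. Tas2r142-ps5, named as a pseudogene and the third of the family by level per kb, stood at 633, 1467 and 762 in Het1 to Het3 and at 1414, 692 and 616 in Ko1 to Ko3. Tas2r118 stood at 437, 1404 and 684 against 1071, 222 and 889.5. Within each group the values of these genes spread over more than the difference of the means. Tas2r115 stood at 343, 1514 and 941 against 1113, 77.7 and 188, where Ko1 alone lay within the WT-labelled range. Tas2r102 stood at 50.9, 1231 and 531 against 454, 293 and 556. Its mean was higher under the WT label while its log2 difference was 0.38, with Het1 the lowest library, and Tas2r131 had the same opposition of signs. Tas2r138, the mouse orthologue of the human phenylthiocarbamide receptor TAS2R38, stood at 267, 438 and 397 against 820.0, 309 and 709 (limma adjusted p = 0.570).

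Across the family, Het2 was most often the highest library and Het1 low within its group. Het2 held the highest of the 6 values for 25 of the 36 tested genes (69.4%), against 18.7% of all tested genes. Het3 held it for 5 (13.9%, against 17.8% of all tested genes), Ko1 for 3, Ko3 for 2, Ko2 for 1 and Het1 for 0, although Het1 was highest in 15.8% of all tested genes. Het1 lay below both Het2 and Het3 in 28 of 36 members, against 34.0% of all tested genes. Het2 lay above every KO-labelled library in 29 members, Het3 in 17 and Het1 in 8 of 36 (all tested genes: 30.6%, 29.9% and 28.1%). The 36 genes share libraries, so these counts describe 6 libraries and not 36 separate comparisons. Het2 and Het3 had the highest Aire-stage sums given above, which were mostly H2-Aa and Ubd. Het2 was highest and Het1 lowest for the ciliated and cortical marker sums, with the limits on Dnah5 and Ccl25 given there. Het1 was not the lowest of its group for the microfold, neuroendocrine, keratinocyte-like and ionocyte sums. The tuft marker sums were 174283, 147891 and 123088 in Het1, Het2 and Het3. Het1 was thus the highest of its group there, while Het2 again lay above Het3. The part of these cell types in the order of the libraries was not tested.

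Some members were near 0 in a library and clearly present in another of the same group. In 13 of the 36 tested genes (36.1%), a library of a group was under 5 while another of the same group was at 50 or more, against 20.2% of all tested genes. The shares over all tested genes were not matched for expression level. This occurred in 9 members under each label, against 12.5% of all tested genes under the WT label and 10.3% under the KO label. In 5 members, Tas2r119, Tas2r121, Tas2r125, Tas2r130 and Tas2r140, it occurred under both. Tas2r125, for example, was at 0, 179.6 and 201 in Het1 to Het3 and at 0, 55.9 and 0 in Ko1 to Ko3. Tas2r140 was at 1.12, 90.9 and 569.9 against 0, 93.2 and 0. Neighbouring Tas2r126 and Tas2r135 had 0 reads in Het1 alone, while the other 5 libraries held 128 to 540.1 for Tas2r126 and 58.7 to 121 for Tas2r135. Tas2r139 had 95 reads in Het2 (67.4) and 0 in every other library, Het1 and Het3 included. Pooled over each label, this is at least 21.5-fold lower under the KO label against a floor of 3 reads over the group. That bound rests on Het2 alone and covers counting error only, so it does not describe the label.

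By position, most Tas2r genes lie in arrays on chromosome 6. Splitting the annotated order wherever neighbouring members lie more than 500 kb apart gave 7 position groups, with Tas2r134 alone on chromosome 2, Tas2r119 alone on chromosome 15 and Tas2r118 alone on chromosome 6. The neighbours Tas2r137, Tas2r108 and Tas2r138 formed 1 group, and all 3 had a positive log2 difference. Their sum was 1972, 2354 and 1512 in Het1 to Het3 and 3153, 3131 and 4493 in Ko1 to Ko3, with no overlap, a KO to WT ratio of 1.85. Tas2r108 supplied most of this sum. Tas2r137 stood at 207, 196 and 199 against 189, 260.0 and 597, so its mean rested on Ko3.

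**Figure D4:**
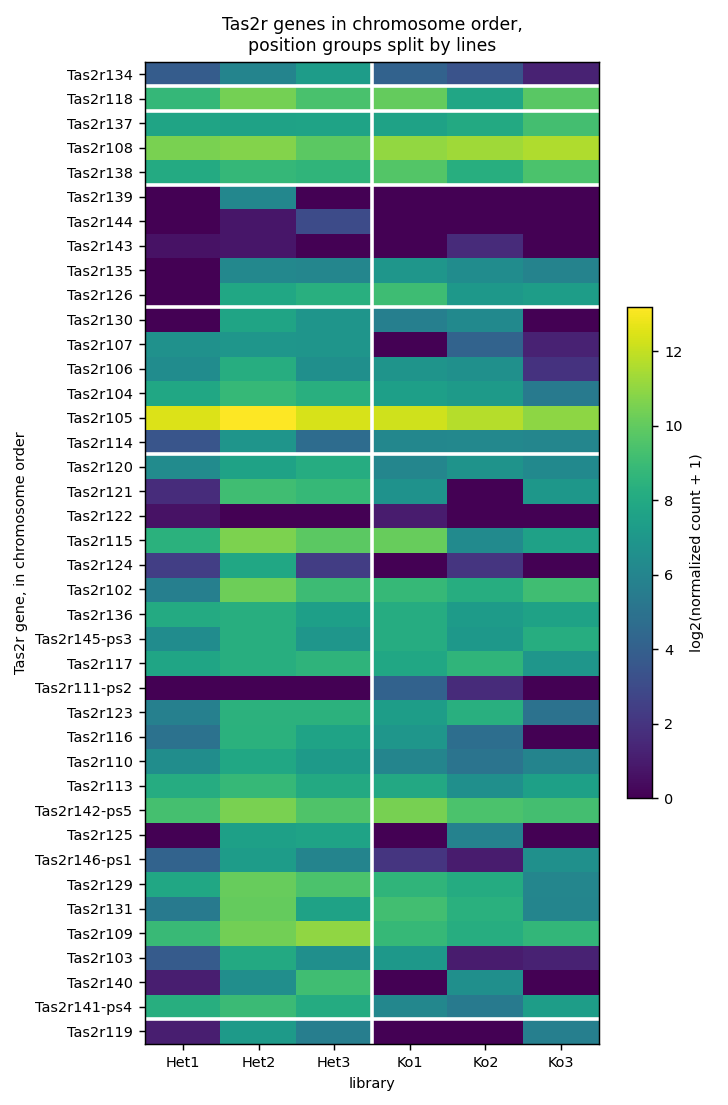
Heat map of log2(normalized count + 1) for the 40 Tas2r genes in chromosome order (rows) and the 6 libraries (columns), with white lines between position groups and between labels. Tas2r105 and Tas2r108 are the brightest rows, and Tas2r126 and Tas2r135 are dark in Het1 only.

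The 2 larger arrays leaned the other way. The array from Tas2r130 to Tas2r114, which includes Tas2r105 and Tas2r107, has 6 genes, 5 of them with a negative log2 difference. It summed to 6266, 10516 and 5950.4 against 5259.5, 3773 and 2083, with no overlap and a ratio of 0.489. Tas2r105 made up most of it. The array from Tas2r120 to Tas2r141-ps4 has 23 genes, of which 21 were tested and 18 were negative. It summed to 3239, 12188 and 8752 against 6203, 3405 and 3259. Here Het1 lay below all 3 KO-labelled libraries, though by little for Ko3. The group of Tas2r139, Tas2r144, Tas2r143, Tas2r135 and Tas2r126 summed to 0.559, 366 and 392 against 662, 215 and 221, where Het1 was nearly at 0. Octamer letters were in 6 of the 9 windows of Tas2r118 and the groups of Tas2r137 and Tas2r139, and in 1 of the 20 windows of the 2 larger arrays. Of the genes with these letters, Tas2r137, Tas2r108, Tas2r135 and Tas2r126 had a positive log2 difference. Tas2r118 (-0.33) and Tas2r107 (-4.99) had a negative one, and Tas2r144 was not tested. The pooling of groups was chosen after the values were seen, and a link between letters and direction was not tested.

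**Figure D5:**
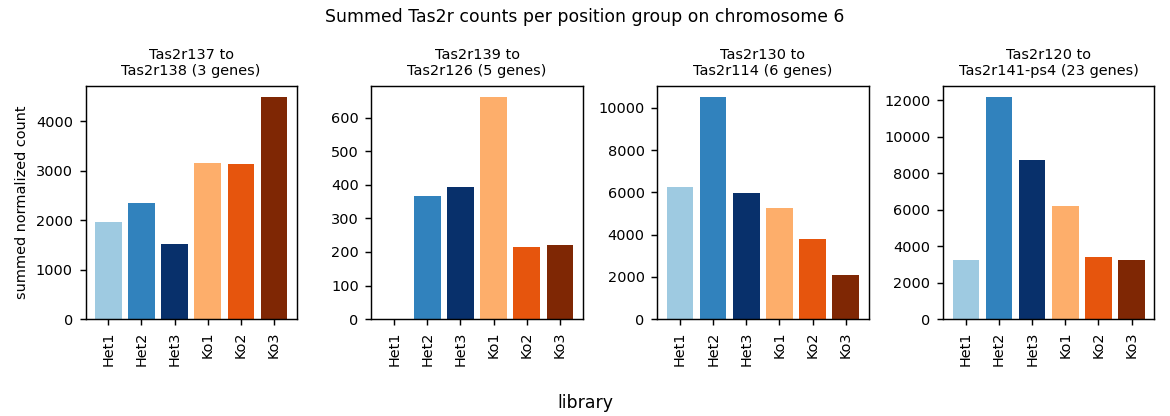
Bars give the summed normalized count of 4 position groups on chromosome 6 in each library, each panel on its own linear axis from 0. The Tas2r137 to Tas2r138 group is higher in every KO-labelled library (3131 to 4493) than in any WT-labelled one (1512 to 2354), and the Tas2r130 to Tas2r114 array is higher in every WT-labelled one.

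Close copies limit how far single members can be read. Over 780 pairs of transcripts the median nucleotide identity was 57.4%, and 5 pairs were over 80%. The closest pair was Tas2r111-ps2 and Tas2r109, at 88.3%. Tas2r111-ps2 had 0 reads under the WT label and stood at 16.5, 2.07 and 0 in Ko1 to Ko3, 18 reads in all. Pooled over each label, this is at least 8.86-fold higher under the KO label against a floor of 3 reads over the group. That bound rests mostly on Ko1 (16 reads) and covers counting error only. Tas2r109 stood lower under the KO label. Tas2r123 and Tas2r110 were 86.3% identical and shared 71 stretches of 50 bases. Tas2r123 stood at 53.1, 357 and 354 against 164, 317 and 30.1. Tas2r145-ps3 and Tas2r117 were 84.2% identical. Tas2r145-ps3 stood at 83.9, 306 and 121 against 288, 128 and 301, and Tas2r117 at 213, 305 and 375 against 233, 391 and 120.3. Both members of these last pairs overlapped between the groups, apart from Tas2r110. Exact 50-base stretches shared with another member made up 7.66% of Tas2r123, 7.45% of Tas2r110, 6.76% of Tas2r117 and 5.43% of Tas2r109, so the values of these genes are uncertain. Of the 40 genes 34 shared none.

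Downstream of the receptors, the transduction pathway held both directions. Of 28 taste transduction genes 25 were tested, 17 with a negative and 8 with a positive log2 difference, with a median of -0.45 (all tested genes: 52.8% negative, median -0.05). Gnb3, the gustducin beta subunit, fell from 11988 ± 1218 (SD, n = 3) under the WT label to 5274 ± 1657 under the KO label (limma adjusted p = 0.0341), and its adjusted p was 0.0788 with edgeR. Its limma adjusted p passed 0.05 without Ko3 and missed it when any other library was left out (0.0633 to 0.151). Rgs13, of the RGS family that shortens G protein signals, rose from 32005 ± 2645 (SD, n = 3) to 81568 ± 15215 (limma adjusted p = 0.00868), and of the 6 libraries left out in turn, its adjusted p missed 0.05 only without Het3 (0.0621). These were the only genes of the list that passed with limma, 2 of 25 tested, where 0.814% of all tested genes did. The list was chosen with earlier results of these data known, so this share is a description only. DESeq2 also called Gng13 (adjusted p = 0.00183), Calhm3 (0.0102) and Rgs21 (0.0278), all lower under the KO label (background 6.34% in either direction). Gng13, the gamma subunit, was at 27672 ± 2147 and 17173 ± 2629 (limma adjusted p = 0.0504). Gnat3, the alpha subunit gustducin, was at 22971 ± 8955 and 23128 ± 5515 (limma adjusted p = 0.955), and Trpm5 at 15047 ± 3149.7 and 18668 ± 1352 (limma adjusted p = 0.407).

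Other receptor families and regulators gave no call in the main limma fit. DESeq2 called Ffar3 (adjusted p = 0.0397), Etv1 (0.00239) and Foxi1 (0.00391), all lower under the KO label. The edgeR adjusted p of these genes was 0.241, 0.118 and 0.197. Tas1r3, the subunit that sweet and umami receptors share, was at 853 ± 216 (SD, n = 3) and 1164 ± 261 (limma adjusted p = 0.555), and Tas1r1, the umami subunit, at 250.1 ± 150.3 and 148 ± 37.6 (0.701). Of 13 other chemosensory receptors 12 were in the table and 8 were tested, all with a negative log2 difference and a median of -1.32, against 52.8% negative and a median of -0.05 over all tested genes. Ffar3, a receptor for short-chain fatty acids, was at 53.9 ± 26.5 and 1.64 ± 1.48 (limma adjusted p = 0.171), and Cysltr2, a leukotriene receptor, at 853 ± 302 and 484 ± 125 (0.380). Of 14 tuft cell transcription factors 12 were in the table and tested, 5 negative and 7 positive, with a median of 0.04. Those with the smallest p were Etv1 (735 ± 221 and 237 ± 10.1, limma adjusted p = 0.0880) and Foxi1, also an ionocyte factor (87.7 ± 90.0 and 1.38 ± 1.19, 0.163). Pou2f3 was at 2490.1 ± 390.4 and 2765 ± 306 (limma adjusted p = 0.786).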

How the data were processed

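RNA of sorted thymic tuft cells was sequenced in 6 libraries. The authors' tools were STAR 2.7.9a and DESeq2 with the build GRCm39, per the submitters' processing notes. For the read counter, annotation and strandedness, the sources used here give nothing. The deposited expression table holds a signal, in which each library's gene counts share 1 size factor. Every value was a whole multiple of what 1 read is worth (100% within 0.01 reads), so reads were recovered. The deposited comparison table holds, per the file headers, log2 fold changes, a Wald score, p-values and mean signal.

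Symbols were matched for 55144 of 55471 genes. limma 3.58.1 (R 4.3.3) was fitted to log2(value + 1) with a pseudocount of 1, for 19416 genes with a mean of at least 10, among them 36 of the 40 Tas2r genes, with Benjamini-Hochberg adjustment at 0.05, two-sided. edgeR 4.0.16, DESeq2 1.42.0 and voom ran on recovered reads. The fits were tested on simulated data. Transcript lengths, gene order and identities used GENCODE on GRCm38, and promoter windows RefSeq GRCm38.p6, builds other than the authors', so positions apply to those builds only. The 6 sequences shown are among 31 matched windows.

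Named in every library were the 8 members with the highest mean, those without overlap, the 3 with the smallest p and the 3 closest pairs. Pairs were ranked on nucleotide rather than protein identity, as no protein table was used here. Other values beyond this rule were chosen after they were seen. The members, lists and tests were chosen with earlier results of these data known. No other per-sample columns were left out (0).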

Additional observations from a re-analysis of the deposited data

How the results depend on the processing

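Depth limits the low members, since 3 reads were worth up to 4.33 normalized counts, and 3 libraries per group limit the rest. Over the genes tested, 158 were called by limma, 1118 by DESeq2, 75 by edgeR, 87 with a replicate block by column number, 239 with robust eBayes, 40 with voom and 0 to 116 when each library was left out in turn (0 without Het3, 14 without Het2, 50 without Ko3 and 56 without Ko2). Same-numbered libraries did not deviate together (r = 0.0250, 0.0214 and -0.0153), so the numbers were not taken as pairs, and the replicate block called 0 Tas2r genes. Called Tas2r genes numbered 0 under every setting run except DESeq2 (5); the cause was not tested. Called pathway genes numbered 2, 8 with DESeq2, 1 with edgeR and 0 to 2 with a library left out. They numbered 3 with voom, robust eBayes, no filter, a minimum mean of 50 or a pseudocount of 5. The median Tas2r log2 difference stayed negative, from -1.87 without Het1 to -0.77 without Het2, with 22 to 30 genes negative. Quantile scaling moved the median of all tested genes from -0.05 to 0.08, and the Tas2r median was -1.16 there. The KO to WT ratio of the family total ranged from 0.571 to 0.864 with a library left out. The mean number of members detected under the KO label was 28.7 at a value of 5 and 32.3 at 1 read. Members with WT-labelled values all above KO-labelled ones numbered 8, and from 8 to 16 without Het2 or Het1, an alternative chosen after seeing the data. Reversed log2 differences were -0.47 (DESeq2) and -0.44 (edgeR) for Tas2r102. With each library left out in turn, the range was -0.94 (without Het1) to 1.34 for Tas2r102, -0.79 to 0.055 (without Ko3) for Tas2r117, -1.60 to 0.27 (without Ko3) for Tas2r123, -0.75 to 0.38 (without Ko2, and 0.12 without Het2) for Tas2r118 and -0.45 to 0.28 (without Het2, and 0.07 without Ko2 and 0.15 without Ko3) for Tas2r142-ps5.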
